A study of Mus musculus with 8 samples.

Results

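The 28 genes described here encode voltage-gated potassium channels, their auxiliary subunits and 1 HCN channel. The list was chosen and does not hold every measured gene of these families. Each gene was read from probe sets that name no other gene. The members are 28 of 11992 genes with a gene value. In all, 470 of 391597 probe sets named 1 of the 28 genes, and 443 of the 470 were bright enough to be kept. A probe set is a group of short probes against 1 stretch of a transcript, and an exon array carries several along each gene. The 2 groups were 4 Nova2 KO mice, labelled as knockout of Nova2, and 4 wild type mice, all of the CD1 strain and at postnatal day 10, with total RNA of the cortex on 1 array per mouse. Nova2 encodes an RNA-binding protein of neurons with a role in alternative splicing, and the comparison asks which transcripts and exons of the channels differ without it. The labels do not give the deleted part of Nova2, nor whether the loss is limited to some cell types.

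Voltage-gated potassium channels open when a neuron is depolarised and bring its membrane back to rest, so they set the width, the height and the rate of action potentials. Each channel is built of alpha subunits around a pore, and beta subunits, KChIP proteins and dipeptidyl peptidase-like proteins change its kinetics and its place in the cell. HCN channels open on hyperpolarisation instead and carry the inward current that sets resting potential and rhythmic firing. In the rodent cortex, expression of many of these genes climbs in the weeks after birth, as neurons mature.

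Array medians ran from 7.02 to 7.37 log2 units, with the lowest on Wild type 4 (7.02) and Nova2 KO 4 (7.06). Values are log2 signals throughout, and a difference is Nova2 KO minus wild type. In Nova2 itself, probe set 5294108 stood at 6.86 ± 0.45 log2 in Nova2 KO and at 8.68 ± 0.14 log2 in wild type (SD, n = 4 each). Other Nova2 probe sets went the other way, with 4414499 at 8.37 ± 0.095 log2 in Nova2 KO and 7.67 ± 0.17 log2 in wild type, and 4355944 at 8.80 ± 0.22 log2 in Nova2 KO and 8.40 ± 0.067 log2 in wild type (SD, n = 4 each). The groups did not overlap in any of these 3, and the gene value over all 16 Nova2 probe sets differed by -0.016 log2. The glutamatergic neuron gene Slc17a7 was bright on every array, at 11.84 to 12.18 log2 in Nova2 KO and 12.02 to 12.30 log2 in wild type. Of the 7 measured glutamatergic genes, 4 were above 0, with a median difference of 0.18 log2 and none past the threshold; Fezf2, whose groups did not overlap, and Neurod6 were each at 0.29 log2. Of 12 measured genes of oligodendrocytes and myelin, 11 were below wild type, against 44.6% of all genes. The summed level of the 12 was 12.64 to 12.85 log2 in Nova2 KO and 12.98 to 13.13 log2 in wild type. Mal (-1.03 log2, limma adjusted p = 0.0251) and Mog (-0.77 log2, limma adjusted p = 0.0301) passed the threshold, as 0.208% of all genes did. Olig1, Olig2, Sox10 and Pdgfra ran from -0.11 to 0.046 log2, and Gpr17 was at -0.36 log2. Whether the level of these genes moves with the channel values was not tested. In whole cortex, fewer cells of a type and less RNA per cell cannot be told apart. Among further marker lists, 4 of 6 astrocyte, 4 of 5 microglial and 5 of 5 vessel genes were below 0. So were 2 of 4 striatal genes, Penk at -0.47 log2 among them, and 2 of 3 thalamic genes. The hippocampus and blood lists had 1 measured gene each, Wfs1 (-0.45 log2) and Alas2 (-0.72 log2). None of these passed the threshold. Whether dissection or blood content differed was not tested.

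None of the 28 channel genes passed the gene-level test (limma, Benjamini-Hochberg adjustment over all genes at 0.05), and their lowest adjusted p was 0.347. Among all genes 25 passed, or 0.208%. At an unadjusted p under 0.05 there were 3 of the 28, or 10.7%, against 11.6% of all genes, and all 3 were lower in Nova2 KO, a direction and p that 3.72% of all genes showed. That count was 0 without Nova2 KO 4 (10.9% of all genes in that setting) or without Wild type 3 (10.3%), 1 without Wild type 1 (8.53%) or without Wild type 2 (9.48%), 5 without Nova2 KO 1 (11.3%) or without Nova2 KO 2 (11.7%), and 8 without Wild type 4 (13.4%). By sign alone, 22 of the 28 differences were below 0, or 78.6%, against 44.6% of all genes. The median difference of the 28 was -0.12 log2, against 0.022 log2 for all genes tested, and ran from -0.23 log2 without Wild type 4 (-0.0093 log2 for all genes) to -0.070 log2 without Nova2 KO 4 (0.050 log2 for all genes). The 4 Nova2 KO values lay apart from the 4 wild type values for 1 of the 28, or 3.57%, against 7.56% of all genes.

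The data set a limit on the size of these differences. The 95% confidence intervals of 27 of the 28 genes lay within 1 log2 unit of 0 on both sides, and standard errors ran from 0.092 to 0.24 log2. Kcna1 was the exception, with an interval of -1.01 to 0.012 log2. Leaving out 1 array moved 22 of the 28 differences by over 1.5 times or across 0 at least once, 16 of them without Nova2 KO 4 and 16 without Wild type 4. The differences of Hcn2, Dpp6, Kcnab2 and Kcnq3 moved by less than that in all 18 settings run.

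**Figure D1:**
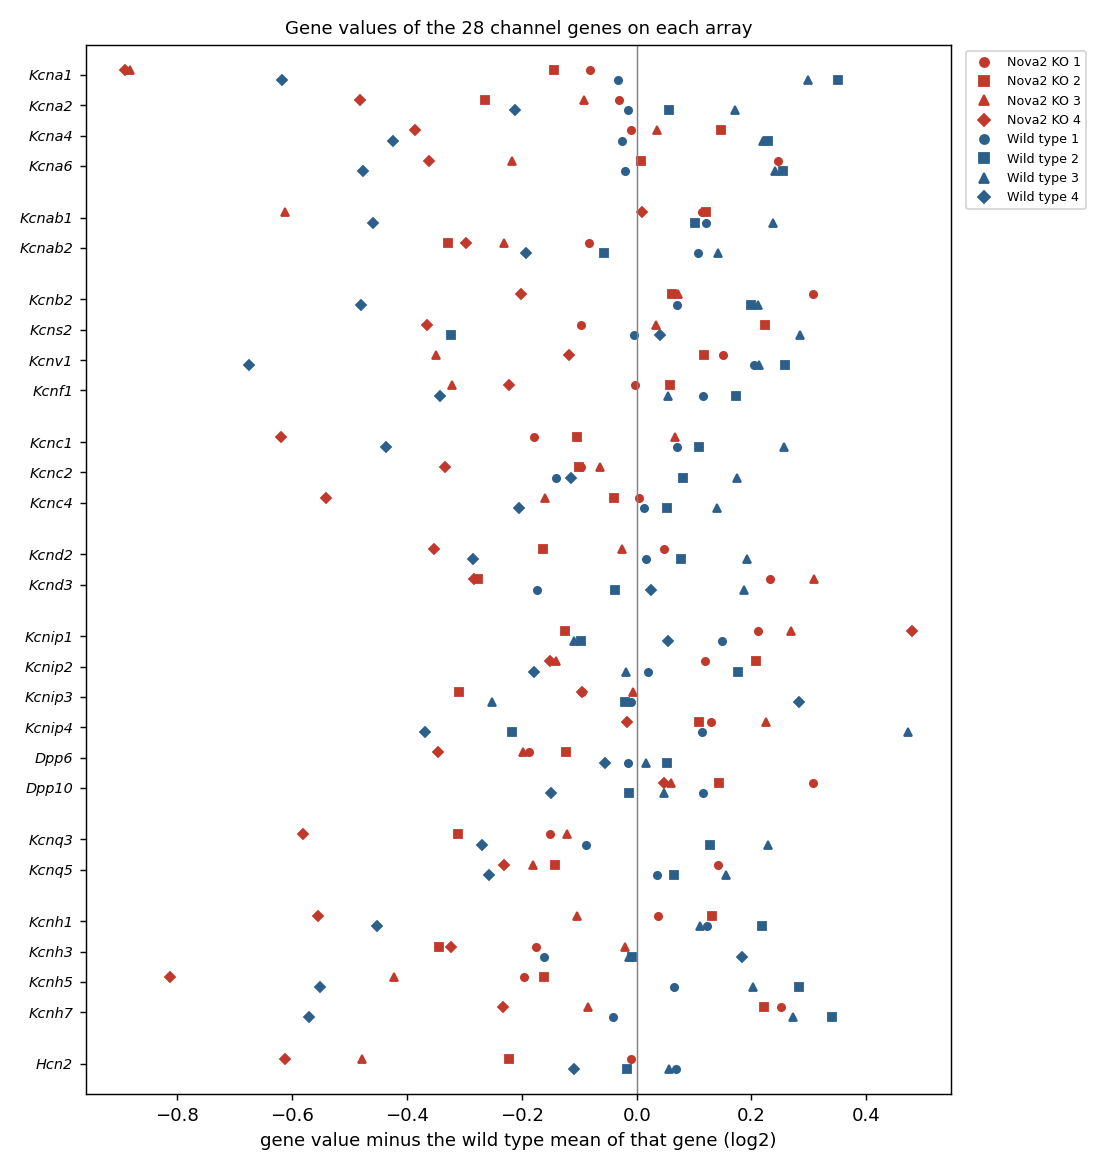
Gene values of the 28 channel genes on each array, as the difference in log2 from the wild type mean of that gene (horizontal axis), with Nova2 KO arrays in red above wild type arrays in blue and a marker shape for each replicate number. Dpp6 is the gene whose 4 Nova2 KO points all lie left of its wild type points, and the diamonds of the arrays numbered 4 lie to the left in most genes.

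**Figure D2:**
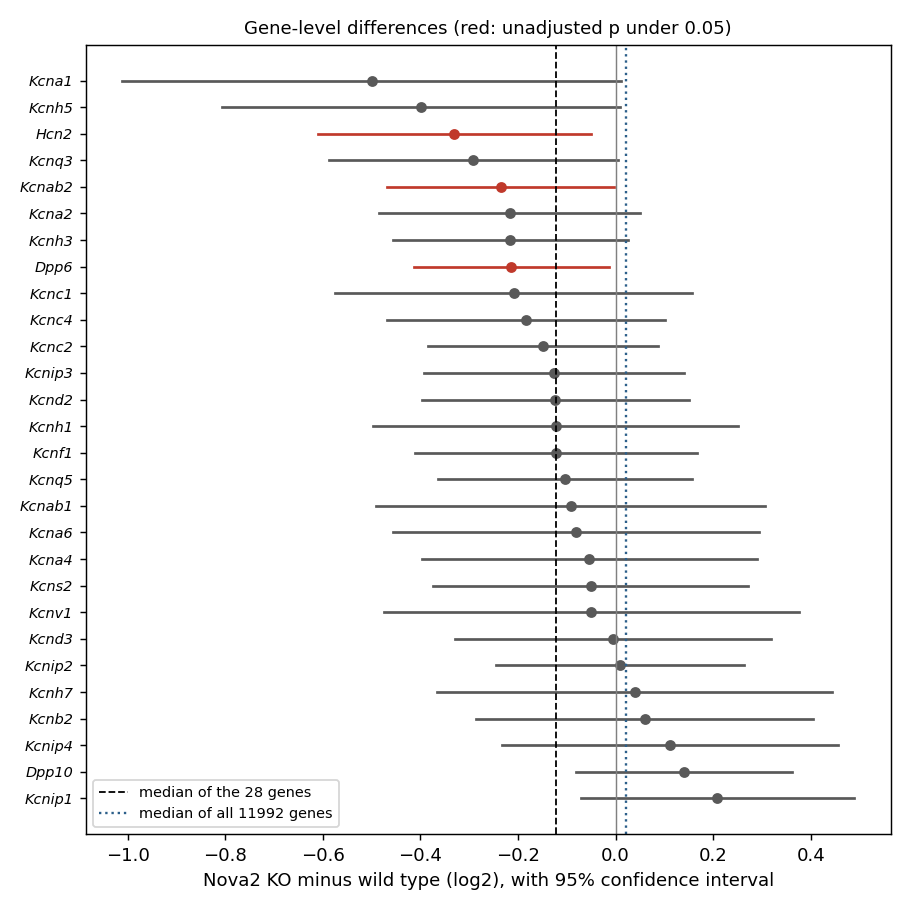
Difference between Nova2 KO and wild type for each gene (log2, horizontal axis, points) with its 95% confidence interval (lines), ordered from the lowest to the highest, with n = 4 arrays per group. Red marks Hcn2, Kcnab2 and Dpp6, whose unadjusted p was under 0.05; the dashed line is the median of the 28 genes (-0.12) and the dotted line that of all genes (0.022).

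The Shaker family forms fast potassium channels of axons and terminals. Kcna1 and Kcna2, which share channels beside the nodes of Ranvier and at presynaptic terminals, differed by -0.50 log2 (SE 0.24, adjusted p = 0.441) and by -0.22 log2 (SE 0.12, adjusted p = 0.524) in the limma fit. Kcna1 had values of 8.66, 8.60, 7.86 and 7.85 log2 on Nova2 KO arrays 1 to 4, against 8.71, 9.10, 9.04 and 8.13 log2 on wild type arrays 1 to 4. Nova2 KO 3 and Nova2 KO 4 lay below every wild type array, whereas Nova2 KO 1 and Nova2 KO 2 lay within the wild type range. Kcna2 ran from 8.81 to 9.26 log2 in Nova2 KO and from 9.08 to 9.46 log2 in wild type, so the groups overlapped. With the mean over probe sets in place of the median, the Kcna1 difference was -0.17 log2. Without Nova2 KO 4 the Kcna2 difference was -0.13 log2. All 6 kept probe sets of Kcna2 and 11 of 13 of Kcna1 were below 0. Kcna4, an alpha subunit that inactivates quickly, and Kcna6, which joins Kcna1 and Kcna2 in mixed channels, were at -0.054 log2 (SE 0.16) and -0.081 log2 (SE 0.17).

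Kcnab1 and Kcnab2 encode beta subunits that bind Shaker channels from the cytoplasm, and the first can confer fast inactivation on them. Kcnab2 had values of 10.15, 9.90, 9.998 and 9.93 log2 on Nova2 KO arrays 1 to 4 and of 10.34, 10.17, 10.37 and 10.04 log2 on wild type arrays 1 to 4. Nova2 KO 1 was the array that overlapped with wild type, above Wild type 4. The difference was -0.24 log2 (SE 0.11, unadjusted p = 0.0479, limma adjusted p = 0.424), and all 17 kept probe sets were below 0. Kcnab1 differed by -0.092 log2 (SE 0.18), with Nova2 KO 3 at 8.88 log2 and the other Nova2 KO arrays at 9.50 to 9.61 log2. Without Nova2 KO 3 the Kcnab1 difference was 0.081 log2.

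Among Shab and modifier subunits, Kcnb2 encodes a delayed rectifier alpha subunit, while Kcns2, Kcnv1 and Kcnf1 form no channel of their own and change the properties of Shab channels. Their differences were 0.059 log2 (SE 0.16) for Kcnb2, -0.051 log2 (SE 0.15) for Kcns2, -0.050 log2 (SE 0.20) for Kcnv1 and -0.12 log2 (SE 0.13) for Kcnf1. The groups overlapped in all 4 genes. The Kcnf1 difference was -5.3e-05 log2 with no filter on dim probe sets, and ran from -0.24 log2 without Wild type 4 to -0.055 log2 without Nova2 KO 3. All 6 kept probe sets of Kcnf1, the highest at -5.3e-05 log2, and all 3 of Kcns2 were below 0. For Kcnv1, Wild type 4 stood at 9.03 log2 and the other wild type arrays at 9.91 to 9.96 log2, and the difference was -0.27 log2 without it.

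The Shaw family opens at strong depolarisation and closes fast, which lets fast-spiking interneurons fire at high rates. Kcnc1 differed by -0.21 log2 (SE 0.17), Kcnc2 by -0.15 log2 (SE 0.11) and Kcnc4 by -0.18 log2 (SE 0.13). Kcnc1 ran from -0.35 log2 without Wild type 4 to -0.10 log2 without Nova2 KO 4, and was at -0.089 log2 with a filter at the 50th percentile. Kcnc4 was at -0.065 log2 without Nova2 KO 4. All 8 kept probe sets of Kcnc4 were below 0, against 7 of 16 of Kcnc2. In Kcnc2 the gene value of Nova2 KO 4 was 8.48 log2, below the other Nova2 KO arrays at 8.72 to 8.75 log2. The Kcnc2 difference was above 0 under other settings, with the mean over probe sets (0.068 log2) and a filter at the 50th percentile (0.034 log2). Of 9 listed GABA interneuron markers 8 were measured, and Pvalb had no gene value. Among the 8, 6 were above 0, with a median of 0.033 log2 and none past the threshold. Whether fast-spiking interneurons changed was not tested.

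Kcnd2 and Kcnd3, the Shal alpha subunits, carry the A-type current of dendrites, which damps back-propagating action potentials. Kcnd2 was at -0.12 log2 (SE 0.13), with 10 of 11 kept probe sets below 0, and ran from -0.22 log2 without Wild type 4 to -0.047 log2 without Nova2 KO 4. Kcnd3 was at -0.0048 log2 (SE 0.15), with Nova2 KO values of 7.48 to 8.07 log2 spread around wild type values of 7.59 to 7.95 log2.

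The auxiliary subunits of Shal channels went both ways, with 2 of 6 below 0. Dpp6, a dipeptidyl peptidase-like protein without enzyme activity that speeds Shal channels and carries them into dendrites, had values of 10.45, 10.51, 10.43 and 10.29 log2 on Nova2 KO arrays 1 to 4, against 10.62, 10.68, 10.65 and 10.58 log2 on wild type arrays 1 to 4. Every Nova2 KO value lay below every wild type value. The Dpp6 difference was -0.21 log2 (SE 0.092, unadjusted p = 0.0383, limma adjusted p = 0.398), and wild type stood 1.16-fold above Nova2 KO. Of 32 kept Dpp6 probe sets, 31 were below 0.

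Dpp10, a relative of Dpp6 with a like action on Shal channels, was at 10.05, 9.88, 9.80 and 9.79 log2 on Nova2 KO arrays 1 to 4 and at 9.85, 9.73, 9.79 and 9.59 log2 on wild type arrays 1 to 4. Its difference was 0.14 log2 (SE 0.10, limma adjusted p = 0.632), the groups overlapped, and 5 of 29 kept probe sets were below 0. Without Nova2 KO 1 it was 0.084 log2. The KChIP genes encode calcium-binding proteins that attach to the cytoplasmic end of Shal subunits. Kcnip1 was at 0.21 log2 (SE 0.13), with 4 of 17 kept probe sets below 0. It was at 0.12 log2 without Nova2 KO 4 and at 0.11 log2 with a filter at the 50th percentile, a filter that put Kcnip4 at 0.33 log2. Its values ran from 8.26 to 8.87 log2 in Nova2 KO and from 8.28 to 8.54 log2 in wild type. Kcnip4 was at 0.11 log2 (SE 0.16), Kcnip2 at 0.0091 log2 (SE 0.12) and Kcnip3, whose product also binds DNA, at -0.13 log2 (SE 0.12).

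Kcnq3 and Kcnq5 contribute to the M-current, a slow potassium current that is closed by muscarinic receptors and holds back repetitive firing. Kcnq3 had values of 9.41, 9.25, 9.45 and 8.98 log2 on Nova2 KO arrays 1 to 4, against 9.48, 9.69, 9.79 and 9.30 log2 on wild type arrays 1 to 4. Its difference of -0.29 log2 (SE 0.14) had an unadjusted p of 0.0530 and a limma adjusted p of 0.437, and 16 of 18 kept probe sets were below 0. Kcnq5 was at -0.10 log2 (SE 0.12), with 24 of 27 kept probe sets below 0.

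The EAG family comprises slowly gated potassium channels, and 3 of its 4 measured members were below 0. The Kcnh5 difference was -0.40 log2 (SE 0.19, limma adjusted p = 0.442). Its values were 8.84, 8.87, 8.61 and 8.22 log2 on Nova2 KO arrays 1 to 4 and 9.10, 9.31, 9.24 and 8.48 log2 on wild type arrays 1 to 4. All 4 Nova2 KO values lay below those of wild type arrays 1 to 3, and 3 of them lay above that of Wild type 4. Leaving out Wild type 4 gave -0.58 log2 and leaving out Nova2 KO 4 gave -0.26 log2. Kcnh3 was at -0.22 log2 (SE 0.11, adjusted p = 0.473, limma), with 25 of 27 kept probe sets below 0. Kcnh1 was at -0.12 log2 (SE 0.17) and Kcnh7 at 0.039 log2 (SE 0.19). In Kcnh1, Wild type 4 stood at 8.31 log2 and the other wild type arrays at 8.87 to 8.98 log2.

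Hcn2, the HCN subunit with a broad presence in brain, had the lowest p of the 28 genes. Its values were 9.07, 8.85, 8.60 and 8.46 log2 on Nova2 KO arrays 1 to 4, against 9.14, 9.06, 9.13 and 8.97 log2 on wild type arrays 1 to 4. Nova2 KO 1 lay within the wild type range, and the other 3 Nova2 KO arrays lay below it. The difference was -0.33 log2 (SE 0.13, 95% interval -0.61 to -0.050, unadjusted p = 0.0245, limma adjusted p = 0.347), and wild type stood 1.26-fold above Nova2 KO. All 15 kept Hcn2 probe sets were below 0, with differences of -0.50 to -0.063 log2.

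Counted by probe set, 310 of the 443 kept probe sets of the channel genes were below 0, or 69.98%, against 47.6% of all kept probe sets that name 1 gene. Probe sets of 1 gene read the same RNA, so they are no separate measurements of a condition. Most kept probe sets were below 0 for 22 genes, and every kept probe set was below 0 for 6 genes, Hcn2, Kcna2, Kcnab2, Kcnc4, Kcnf1 and Kcns2. The shares of all genes with such patterns were not computed, so these 2 counts have no background beside them. Kcns2 had 3 kept probe sets and Kcna2 and Kcnf1 had 6 each, and the highest Kcnf1 difference was -5.3e-05 log2. At an unadjusted p under 0.05, 30 were lower and 8 higher in signal, together 8.58%, against 6.68% of all kept probe sets. None passed the threshold for the signal, which 0.00681% of all kept probe sets did. The groups did not overlap in signal for 23 of the 443, or 5.19%, against 5.10% of all kept probe sets.

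Within each group, the channel genes tended to be low on the same array. Wild type 4 was the lowest wild type array for 22 of the 28 genes, against 51.1% of all genes. Nova2 KO 4 was the lowest Nova2 KO array for 21 of the 28, against 42.7% of all genes. Measured from the wild type mean of each gene, the median of the 28 was 0.0012, -0.10, -0.097 and -0.33 log2 on Nova2 KO arrays 1 to 4, and 0.018, 0.079, 0.18 and -0.26 log2 on wild type arrays 1 to 4. The same median over all genes was 0.060, 0.030, 0.059 and -0.047 log2 on the Nova2 KO arrays and 0.016, 0.031, 0.047 and -0.087 log2 on the wild type arrays. Thus Wild type 4 and Nova2 KO 4 were lower in the channel genes than in genes at large. They are the 2 arrays with the lowest array medians. Nova2 KO 1 was level with the wild type mean, at 0.0012 log2. That mean includes Wild type 4, and Nova2 KO 1 lay below every other wild type array. On Nova2 KO 1 the channel genes were also below all genes (0.060 log2). Without both arrays numbered 4, the median difference of the 28 was -0.14 log2, against 0.019 log2 for all genes. There 22 were below 0, against 45.4% of all genes. With the array median as covariate, the median difference of the 28 was -0.12 log2. In that setting 22 were below 0, against 44.2% of all genes. The array medians ran over like ranges in the 2 groups, 7.06 to 7.37 log2 in Nova2 KO and 7.02 to 7.37 log2 in wild type. This covariate could therefore shift the differences only little. The part of array brightness in the single differences was not tested beyond such settings.

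**Figure D3:**
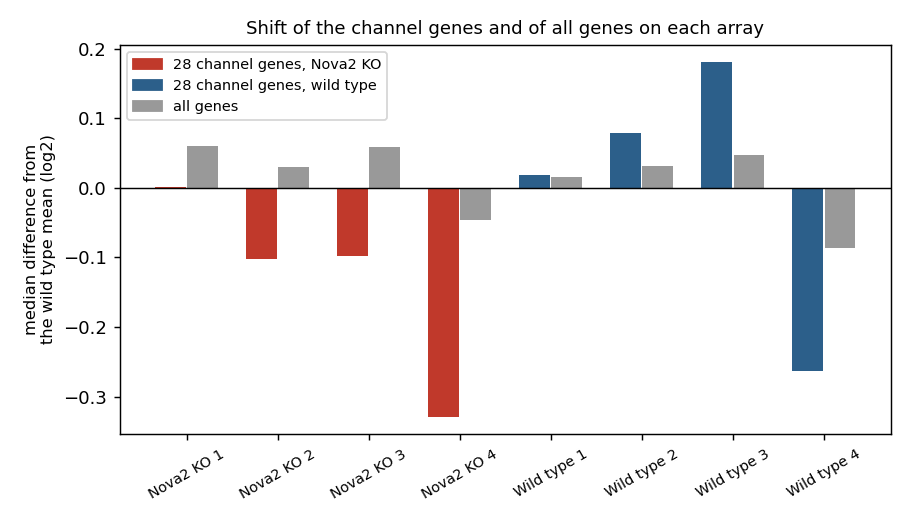
Median difference from the wild type mean (log2, vertical axis) on each of the 8 arrays, for the 28 channel genes (red bars for Nova2 KO, blue bars for wild type) and for all 11992 genes (grey bars). Nova2 KO 4 (-0.33) and Wild type 4 (-0.26) carry the lowest bars of the channel genes, with all genes at -0.047 and -0.087 on those arrays.

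Exon usage was read as the splicing index, a probe set's log2 signal less its gene's value on the same array. It was tested for 440 probe sets in the 27 channel genes with 5 or more kept probe sets, all but Kcns2. None of the 440 passed (limma, adjusted over all probe sets), against 0.0133% of all probe sets tested. At an unadjusted p under 0.05 there were 29, 20 higher and 9 lower relative to their gene, which is 6.59% of the 440 against 6.76% of all probe sets. The index values of the groups did not overlap for 17 of the 440, or 3.86%, against 4.12% of all probe sets tested. Combined per gene by the Simes method, none of the 27 genes passed, against 0.161% of all genes. The lowest Simes p were those of Kcnc1 (0.0279, adjusted p = 0.584) and Kcnc2 (0.0350, adjusted p = 0.585), and 8.37% of all genes had a Simes p under 0.05.

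Kcnc1 held 9 of the 29 probe sets with an unadjusted p under 0.05. They were 9 of its 23 kept probe sets, or 39.1%, and 5 were lower and 4 higher relative to the gene. Outside Kcnc1 there were 20 of 417, or 4.80%, of which Kcnh5 held 5 and Kcnc2 held 3. Of the 3505 genes with 20 or more tested probe sets, 10 others had a share as high, and the median share was 5%. Kcnc1 was singled out after these counts were seen, so they describe it and test nothing.

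In signal, 7 Kcnc1 probe sets were lower at an unadjusted p under 0.05, by -1.04 to -0.38 log2, and the other 16 lay between -0.43 and 0.35 log2 with a median of -0.026 log2. Probe set 5379961 had the largest difference, with 6.19, 6.62, 6.45 and 5.15 log2 on Nova2 KO arrays 1 to 4 and 7.05, 7.44, 7.13 and 6.94 log2 on wild type arrays 1 to 4. All its Nova2 KO values lay below all its wild type values, and Nova2 KO 4 lay under the lowest mean signal kept (5.86 log2). The probe set was named for the size of its difference, so this separation follows in part from the choice. Its signal differed by -1.04 log2 (SE 0.30, limma adjusted p = 0.640) and its index by -0.83 log2 (SE 0.21). The groups were also apart for probe sets 4651914 (6.81 to 8.13 log2 in Nova2 KO, 8.15 to 8.62 log2 in wild type) and 4926195 (7.36 to 7.54 log2 in Nova2 KO, 7.67 to 8.01 log2 in wild type). Probe set 5432862 had the lowest difference of the other 16 (-0.43 log2, SE 0.23), with 8.94 to 9.73 log2 in Nova2 KO and 9.41 to 10.14 log2 in wild type, which overlap. Which exons these probe sets cover was not analysed here.

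**Figure D4:**
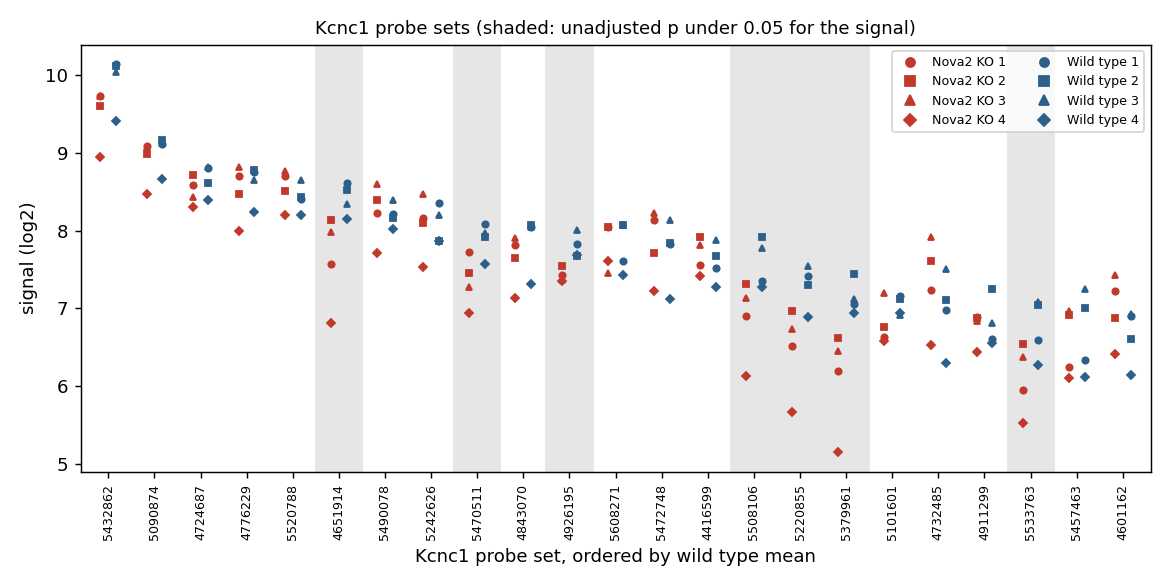
Signal (log2, vertical axis) of the 23 kept probe sets of Kcnc1, ordered by their wild type mean, with Nova2 KO arrays in red to the left of wild type arrays in blue and a marker shape for each replicate number. Grey bands mark the 7 probe sets with an unadjusted p under 0.05 for the signal, in all of which the Nova2 KO mean was lower. The groups did not overlap in 3 of these 7, and overlapped in the rest of them and in the other 16.

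A single Kcnc2 probe set, 4447823, had the lowest exon-usage p of the channel genes. Its signal was 8.42, 8.45, 8.32 and 7.798 log2 on Nova2 KO arrays 1 to 4, against 7.41, 7.795, 7.68 and 6.39 log2 on wild type arrays 1 to 4. The groups did not overlap, although Nova2 KO 4 and Wild type 2 almost met. Relative to Kcnc2 the arrays were further apart, at -0.69 to -0.27 log2 in Nova2 KO and -2.32 to -1.10 log2 in wild type. The index difference was 1.08 log2 (SE 0.25, 95% interval 0.50 to 1.65, unadjusted p = 0.00219, limma adjusted p = 0.551). Without Wild type 4 it was 0.80 log2.

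In Kcna1, the index of probe set 5596335 differed by 0.72 log2 (SE 0.20, limma adjusted p = 0.614), while its signal differed by 0.22 log2 (SE 0.31) and the gene value by -0.50 log2. That index difference was 0.39 log2 with the mean over probe sets and 0.43 log2 with diffSplice. In Kcnc1, the index of probe set 4601162 differed by 0.55 log2 (SE 0.13, limma adjusted p = 0.553) and its signal by 0.34 log2 (SE 0.25). In Kcnd2, the index of probe set 4910613 differed by 0.33 log2 (SE 0.10, limma adjusted p = 0.658). Its signals were 10.75 to 11.06 log2 in Nova2 KO and 10.54 to 10.87 log2 in wild type. All 4 probe sets were chosen for a p under 0.01, so that the Nova2 KO indices lay above the wild type indices follows largely from the choice: over all genes, 90.1% of probe sets with such a p had groups that did not overlap.

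**Figure D5:**
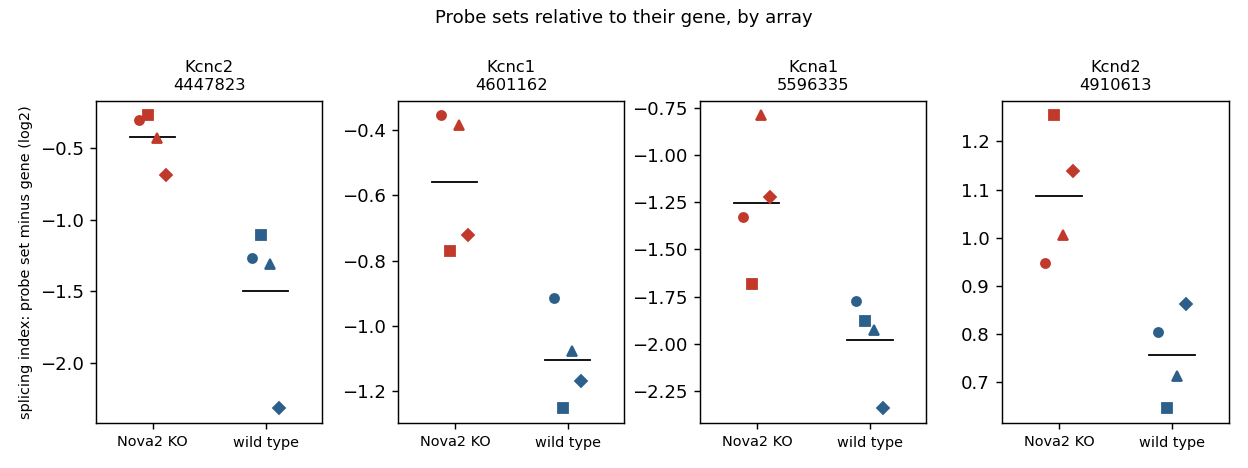
Splicing index (probe set minus gene value, log2, vertical axes on separate scales) on each array for the probe sets of Kcnc2, Kcnc1, Kcna1 and Kcnd2 with the lowest p of their gene, with Nova2 KO in red to the left of wild type in blue and a black line at each group mean (n = 4). The probe sets were chosen for a p under 0.01, and the Nova2 KO points lie above the wild type points in each.

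Kcnab1 probe set 4773960 was called by 1 of the other methods tried, diffSplice of limma, which pools the spread over the probe sets of a gene (adjusted p = 0.0105). That method called 506 probe sets, or 0.259% of all tested, and 1 of the 440, or 0.227%. With its p-values combined by Simes it called 3.80% of all genes, and 1 of the 27 channel genes, or 3.70%. It is named after its values were seen. Its signal was 6.40, 6.92, 7.33 and 7.30 log2 on Nova2 KO arrays 1 to 4 and 5.92, 6.15, 6.28 and 5.99 log2 on wild type arrays 1 to 4, so all Nova2 KO values lay above all wild type values. The signal difference was 0.90 log2 (SE 0.21, limma adjusted p = 0.520) and the index difference 0.997 log2 (SE 0.32), without a call. In wild type the probe set was dim, close to the lowest mean signal kept (5.86 log2).

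Other channel genes were counted for comparison. Of all genes tested, 44.6% were below 0, with a median of 0.022 log2. Of 31 further genes of the voltage-gated potassium and HCN families, 10 were measured and none passed; 9 of the 10 were below 0, with a median of -0.076 log2, and Kcns3, a modifier subunit, was the exception at 0.23 log2 (SE 0.12). Among 10 calcium-activated potassium channel genes 6 were below 0 (median -0.080 log2), none passed, and Kcnn1, a small-conductance channel, had the lowest p (-0.35 log2, SE 0.12, limma adjusted p = 0.283). Of 14 inward rectifier and two-pore channel genes 12 were below 0 (median -0.11 log2) and none passed; Kcnj6, a GIRK subunit, was at -0.47 log2 (SE 0.14, limma adjusted p = 0.253). Voltage-gated sodium channel genes had 5 of 9 below 0 and 4 above (median -0.056 log2). Scn9a passed, higher in Nova2 KO by 1.26 log2 (limma adjusted p = 0.0038). Scn2b, at -0.58 log2 (limma adjusted p = 0.0528), did not pass. Of 12 genes for partners of axonal potassium channels, such as the scaffold Dlg4 and the adhesion gene Cntnap2, 7 were below 0 (median -0.048 log2) and none passed, with the lowest p for Epb41l3, a membrane skeleton gene (-0.23 log2, SE 0.10, adjusted p = 0.411). The lists were not tested against each other.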

How the data were processed

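Per the labels' protocols, Trizol-extracted RNA was labelled with the Affymetrix sense-strand assay. The authors deposited log2 signals per probe set, made with PLIER per the submitters' processing notes; its version, background correction, normalization and genome build are not given in the sources used here. Values were used as deposited. Gene names came from the platform annotation, updated through the gene table of GRCm38.p6, for names only.

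Dim probe sets, those whose mean of the 8 arrays lay at or under the 25th percentile (5.86 log2), were dropped. The gene value was the median over kept probe sets naming that gene alone (3 or more). The splicing index needed 5 or more. Each measure was fitted across all features with lmFit and eBayes (limma 3.58.1, R 4.3.3, data.table package 1.17.8), giving Nova2 KO minus wild type; tests were two-sided, and p-values were adjusted by Benjamini-Hochberg with a threshold of 0.05. Figures used Python 3.11.15 and matplotlib 3.10.9. The fits were run on simulated data as a check of the code. Those data had independent noise for each probe set and added gene differences larger than any of the channel genes. They held no shift shared by a whole array, so they do not cover array shifts such as those seen here. Precision here is limited by the number of arrays, which carry no read depth.

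The channel genes and lists were chosen with earlier results of these data known. All 28 were named, with values on every array for those at an unadjusted p under 0.05 or with groups apart; other genes given in full were chosen after their values were seen, as were Kcnc1 counts. Exon-usage probe sets were named where the lowest p of a gene was under 0.01. Levels of different genes were not compared, since probes differ in affinity. The labels give 1 array per mouse.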

Additional observations from a re-analysis of the deposited data

Results flagged for a closer look

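In 4 of 64 groups of 4 arrays, covering the 28 gene values and the 4 probe sets named for exon usage, 1 array stood apart from the other 3 by a gap beyond Dixon's 95% critical share of the group's range; chance alone gives about 1 in 20 groups. Kcnab1 on Nova2 KO 3 stood at 8.88 log2, below the other Nova2 KO arrays at 9.50 to 9.61 log2. Kcnc2 on Nova2 KO 4 stood at 8.48 log2, below 8.72 to 8.75 log2. Kcnh1 on Wild type 4 stood at 8.31 log2, below 8.87 to 8.98 log2, and Kcnv1 on Wild type 4 at 9.03 log2, below 9.91 to 9.96 log2. All 4 are low values, and 3 of them are on the arrays numbered 4.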

How the results depend on the processing

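Under the alternatives run (up to 20 settings, 18 of which bear on gene values), none of the 28 gene differences and 4 named exon-usage differences passed the threshold, and 20 of these 32 kept their sign throughout. The count of channel genes at an unadjusted p under 0.05 (3) was 6 with a filter at the 50th percentile (12.9% of all genes there), 7 with quantile normalization (11.9%), 7 with the array median as covariate (17.99%), 5 with array weights (14.5%), 5 without both arrays numbered 4 (12.2%), and 8 with the replicate block (18.5%), which changed no channel gene's call; leaving out 1 array gave 0 to 8. Over all genes, 25 passed, against 80 with the replicate block. The labels state no shared litter or batch for a number, and the numbers were not taken to pair the arrays: deviations of same-numbered arrays correlated at 0.14, 0.33, 0.024 and 0.57 across genes, and Nova2 KO 2 and Nova2 KO 4, but not Nova2 KO 1 and Nova2 KO 3, correlated best with their own number. With diffSplice, 1 channel probe set and 1 channel gene by Simes passed (both Kcnab1), near the shares of 0.259% of probe sets and 3.80% of genes that it called in all; 19 probe sets had an unadjusted p under 0.05 for exon usage, against 29, and 5 of them were in Kcnc1, against 9. The 50th percentile filter gave 5 for Kcnc1 exon usage and 4 for its lower signals, against 7. Leaving out 1 array gave 8 to 11 and 5 to 8 for these Kcnc1 counts, 24 to 38 for exon usage, and a median of -0.23 to -0.070 log2. Genes below 0 ran from 18 without Nova2 KO 4 (38.4% of all genes) to 25 without Nova2 KO 1 (47.5%). Signs turned for Kcnc2 (0.034 log2 with the 50th percentile filter, 0.068 with the mean), Kcnip2 (-0.030 with the mean, -0.016 with quantile normalization), Kcnd3 (0.056 with array weights, 0.096 without both arrays numbered 4), Kcnh7 (-0.024 and -0.061 under those settings), and Kcnb2 (-0.014) and Kcns2 (0.067) without both arrays numbered 4. Leaving out 1 array also turned signs, with ranges of -0.19 to 0.058 log2 for Kcna4, -0.24 to 0.012 for Kcna6, -0.25 to 0.081 for Kcnab1, -0.10 to 0.15 for Kcnb2, -0.11 to 0.088 for Kcnd3, -0.27 to 0.021 for Kcnh1, -0.15 to 0.15 for Kcnh7, -0.057 to 0.068 for Kcnip2, -0.011 to 0.27 for Kcnip4, -0.23 to 0.044 for Kcns2 and -0.27 to 0.050 for Kcnv1. Kcns2 had no value under the 50th percentile filter. The causes were not tested. The number of arrays, 4 per group, limits the precision.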
